A study of Homo sapiens with 6 samples.

Results

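The genes described here are 10 members of the AP-1 and immediate early group: the JUN family (JUN, JUNB, JUND), the FOS family (FOS, FOSB, FOSL1, FOSL2) and the immediate early genes EGR1, IER2 and IER5. They were picked by gene symbol, and each symbol matched 1 row among the 61806 genes of the deposited table. RNA was taken from Ishikawa, a long-established line of human endometrial adenocarcinoma cells, grown in medium with fetal bovine serum. Of 6 libraries, 3 carry the genotype label EV and 3 the label TEFM overexpression, TEFM being the mitochondrial transcription elongation factor, and the labels give no treatment for either group. What EV stands for, how TEFM was introduced, whether the derivatives are clones, and how long after the last change of medium they were lysed are not stated. The title of the series asks about TEFM, reactive oxygen species and NF-kB signalling in endometrial carcinoma.

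AP-1 is a family of paired transcription factors. JUN proteins pair with each other or with FOS proteins through a leucine zipper, whereas FOS proteins need a JUN partner, and the pair binds a short palindromic DNA element. Immediate early genes are transcribed within minutes of serum, growth factor or stress signals, without new protein synthesis, and many of their RNAs are short-lived. In epithelial tumours AP-1 is known for its part in proliferation, migration and the response to stress.

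The RNA moved in both directions. IER5, which encodes an immediate early protein that acts on the heat shock factor HSF1, was 3.74-fold higher in the TEFM libraries. FOSL1, which encodes the AP-1 subunit FRA1, was 2.22-fold higher and the zinc finger factor gene EGR1 1.51-fold higher. In contrast, FOSB, JUN and JUND were 1.63-fold, 1.41-fold and 1.35-fold lower. FOS and IER2 did not pass the test. All 10 members had a mean of at least 1 FPKM (fragments scaled by exonic length and library total) over the 6 libraries and were tested. By edgeR's quasi-likelihood test, at a Benjamini-Hochberg adjusted p of 0.05 over all 14254 tested genes, 5 members were higher, 3 were lower and 2 did not pass. Across all tested genes 43.4% passed, 21.7% higher and 21.7% lower. The FPKM of the groups did not overlap for 8 of the 10 members and for 51.6% of all tested genes. The median log2 fold change of the members was 0.19, and their median absolute value was 0.46 against 0.21 for all tested genes. The members were chosen with earlier results of these data known, so these shares are a description only.

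**Figure D1:**
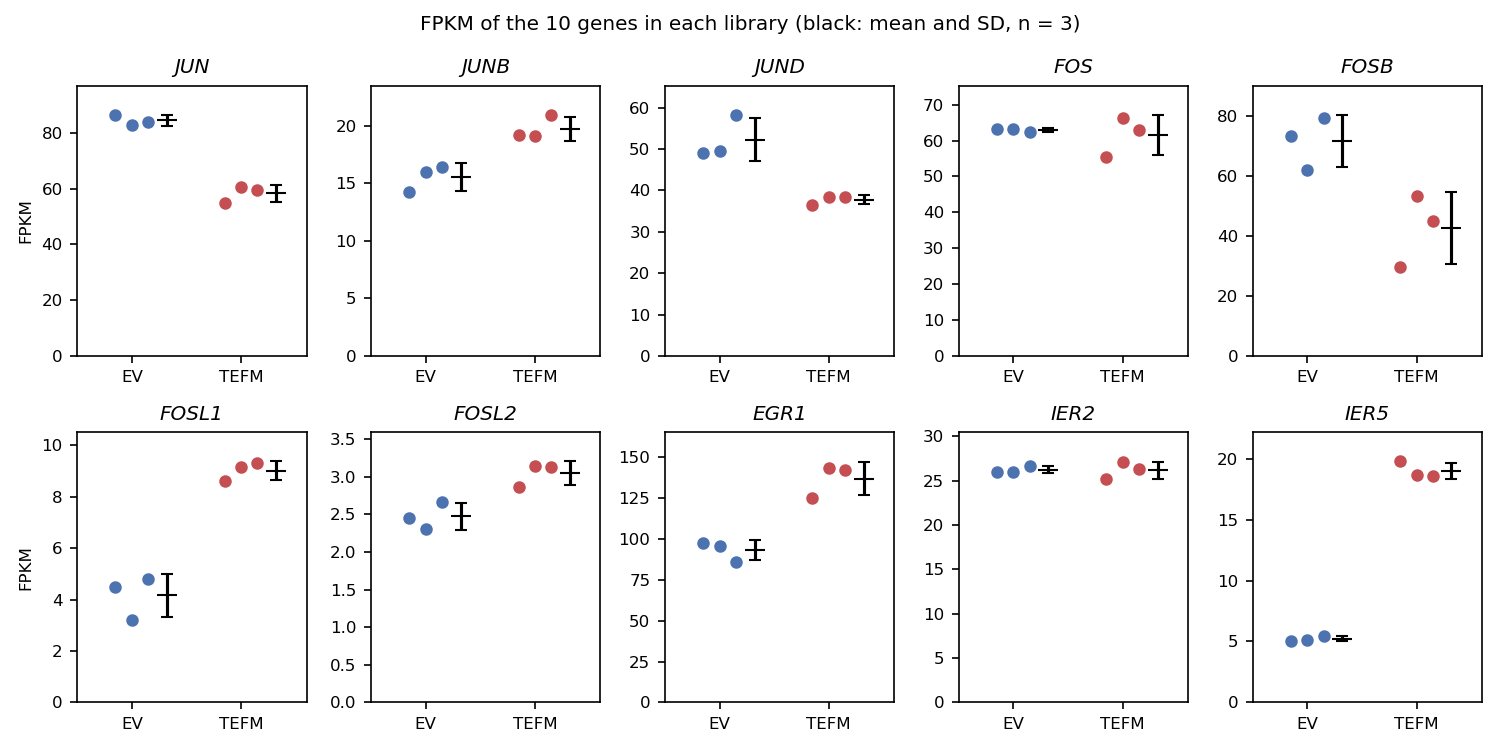
FPKM of the 10 genes in the 3 EV (blue) and 3 TEFM (red) libraries, replicates 1 to 3 from left to right, with the group mean and SD in black and every axis starting at 0. IER5, FOSL1, EGR1, JUNB and FOSL2 lie higher and FOSB, JUN and JUND lower in TEFM without overlap, whereas the groups overlap for FOS and IER2.

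Promoter sequence is shown for IER5, JUN and EGR1, the 3 members with the smallest adjusted p, so that the elements named below can be seen in place. Each run is the 250 bases upstream of the RefSeq start site on the gene's strand, 5′ to 3′, from build GRCh38.p14. Capitals mark the matches to the motifs given after the sequences. IER5 spans chr1:181088450-181088699 on the plus strand, JUN chr1:58784048-58784297 on the minus strand and EGR1 chr5:138465229-138465478 on the plus strand.
IER5: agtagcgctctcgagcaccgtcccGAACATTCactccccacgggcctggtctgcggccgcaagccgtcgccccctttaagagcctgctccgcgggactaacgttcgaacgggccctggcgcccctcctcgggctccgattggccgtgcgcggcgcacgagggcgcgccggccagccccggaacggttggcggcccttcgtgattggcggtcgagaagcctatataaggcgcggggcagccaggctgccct
JUN: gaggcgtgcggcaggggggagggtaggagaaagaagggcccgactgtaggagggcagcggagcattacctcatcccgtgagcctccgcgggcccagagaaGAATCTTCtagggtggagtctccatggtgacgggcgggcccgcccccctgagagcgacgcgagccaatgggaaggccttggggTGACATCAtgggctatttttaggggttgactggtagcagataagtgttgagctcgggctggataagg
EGR1: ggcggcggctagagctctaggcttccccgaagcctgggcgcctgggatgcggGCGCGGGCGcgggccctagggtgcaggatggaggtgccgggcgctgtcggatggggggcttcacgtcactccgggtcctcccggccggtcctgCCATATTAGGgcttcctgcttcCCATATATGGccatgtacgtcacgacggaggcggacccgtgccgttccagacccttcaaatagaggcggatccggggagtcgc

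Motifs were searched on both strands in the 250 bases of the 9 members with a RefSeq promoter entry (FOSL1 was not among them) and in all 35116 promoters of the same table. The EGR1 window held 2 matches to the CArG box, the element bound by serum response factor, at 105 to 96 and 83 to 74 bases before the start site. None of the other 8 windows held one, and 1.16% of all promoters did. Bases beyond the 250 were not searched, so a CArG box further upstream of FOS or another member would be missed. EGR1 also held 1 match to the EGR site GCGNGGGCG, present in 8.41% of promoters. Paired heat shock units, GAANNTTC, were found in IER5 at 226 to 219 bases and in JUN at 150 to 143 bases before the start site, and in 5.78% of promoters. The JUN window held TGACATCA, the variant AP-1 element known from this promoter, at 67 to 60 bases before the start site. That motif was added to the search after the sequence had been seen, and 2.37% of promoters held it. JUND held the cAMP response element TGACGTCA, as did 1.65% of promoters. The AP-1 site TGANTCA (6.57% of promoters) and the NF-kB site (5.21%) were in none of the 9 windows. The FOSL2 window precedes a RefSeq start site 410 bases downstream of the deposited gene start, so it lies inside the counted span. The marked matches do not overlap each other. A match describes the letters of this window and says nothing of binding in these cells.

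Depth ranged from 14252668 to 17891047 counts per library, and TEFM itself stood 5.6-fold higher under its own label (22.72 to 23.98 FPKM) than in EV (4.13 to 4.55 FPKM). Gene-level values do not separate an introduced copy from the endogenous gene. All 8 epithelial and endometrial markers examined, EPCAM and PAX8 among them, were detected, with summed levels of 564 to 612 FPKM in EV and 733 to 767 FPKM in TEFM. Of these markers 7 were higher and PAX8 did not pass. The 8 fibroblast and stromal markers summed to at most 2.79 FPKM, with DCN at 0 in every library. The 7 leukocyte markers summed to at most 1.52 FPKM, with CD3E and TYROBP at 0, and the 5 endothelial markers to at most 0.53 FPKM. In bulk RNA, fewer cells with a transcript and less transcript per cell cannot be told apart. Nothing in the labels beyond the design's statement of independent biological replicates says how the cultures were separated, so the p-values measure the spread among these libraries.

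In the JUN family, JUN itself, the strongest transactivator of the 3, had 86.52, 82.95 and 84.14 FPKM in the EV libraries and 54.91, 60.58 and 59.63 FPKM in the TEFM libraries. Every EV value lay above every TEFM value. The fall was -0.49 on the log2 scale (SE 0.0424, edgeR adjusted p = 9.88e-10). In the deposited table the gene (ENSG00000177606) spans 58776845 to 58784048 on chromosome 1, minus strand, with an exonic size of 3624 bases. JUND, the family member usually described as the least dependent on stimulation, had 49.03, 49.53 and 58.26 FPKM in EV and 36.51, 38.37 and 38.52 FPKM in TEFM. It too fell in all TEFM libraries, by -0.43 on the log2 scale (SE 0.0596, edgeR adjusted p = 2.51e-06). JUND lies on chromosome 19 from 18279694 to 18281622 on the minus strand.

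JUNB, which is induced early and opposes JUN at some promoters, went the other way. It had 14.2, 16 and 16.44 FPKM in EV and 19.18, 19.1 and 20.93 FPKM in TEFM. The groups did not overlap, and the difference was 0.38 on the log2 scale (SE 0.0791, edgeR adjusted p = 0.000336). JUNB (chromosome 19, 12791486 to 12793315, plus strand) lies wholly within the span of HOOK2 on the opposite strand. HOOK2 had 9.03 ± 0.833 FPKM in EV and 10.2 ± 0.274 FPKM in TEFM (SD, n = 3), a log2 fold change of 0.21. No source says whether reads were counted by strand. The overlap is of gene spans, and exons were not compared, so how many reads could belong to either gene is not known.

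The ratio of JUN to JUNB within a library does not depend on the scaling between libraries. It was 6.09, 5.18 and 5.12 in EV and 2.86, 3.17 and 2.85 in TEFM, a difference of -0.88 on the log2 scale. An exact two-sided permutation test gave p = 0.1, and a design of 3 and 3 libraries can reach no smaller value. The ratio of JUN to JUND overlapped between groups, at 1.63 ± 0.165 in EV and 1.54 ± 0.0376 in TEFM (SD, n = 3), with an exact permutation p of 0.5. JUNB made up 10.2% ± 0.659 of the summed JUN family FPKM in EV and 17.0% ± 0.748 in TEFM. The sum itself was 152 ± 5.65 FPKM in EV and 116 ± 4.63 FPKM in TEFM (SD, n = 3).

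In the FOS family, FOS, the founding member, had 63.17, 63.33 and 62.31 FPKM in EV and 55.54, 66.41 and 62.92 FPKM in TEFM. The TEFM values lay on both sides of the EV values. The difference was 0.01 on the log2 scale, with a 95% interval from -0.09 to 0.11 (edgeR adjusted p = 0.904). The FPKM means, 62.9 and 61.6, were in the opposite order to this value, which is on the composition-scaled counts. FOS lies on chromosome 14 from 75278826 to 75282230.

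FOSB, a second strongly inducible FOS gene, had 73.46, 62.19 and 79.5 FPKM in EV and 29.68, 53.44 and 45.21 FPKM in TEFM. All TEFM values were below all EV values, but TEFM replicate 1 was far below the other two. The difference was -0.71 on the log2 scale (SE 0.116, edgeR adjusted p = 2.3e-05), and -0.50 without TEFM replicate 1 (edgeR adjusted p = 8.51e-06). With robust dispersions, which let the spread of a gene stand apart from the trend, the edgeR adjusted p of FOSB was 0.0978, so the call depends on that choice. FOSB (chromosome 19, 45467995 to 45475179, plus strand) lies within the span of ERCC1 on the opposite strand. ERCC1 had 5.36 ± 0.576 FPKM in EV and 6.05 ± 0.181 FPKM in TEFM, a log2 fold change of 0.22, opposite in sign to that of FOSB.

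FOSL1 (FRA1), a FOS protein without the strong transactivation domain of FOS, had 4.5, 3.2 and 4.79 FPKM in EV and 8.62, 9.14 and 9.3 FPKM in TEFM. The groups were well apart. FOSL1 rose by 1.15 on the log2 scale (SE 0.134, edgeR adjusted p = 1.68e-07), resting on 91 to 152 counts in EV and 250 to 303 in TEFM. FOSL1 lies on chromosome 11 from 65892049 to 65900573, where the 206 other tested genes within 5 Mb had a median log2 fold change of 0.2. FOSL2 (FRA2), its closest relative, had 2.45, 2.31 and 2.66 FPKM in EV and 2.87, 3.15 and 3.13 FPKM in TEFM. Its rise was small and free of overlap, at 0.34 on the log2 scale (SE 0.0949, edgeR adjusted p = 0.00533). FOSL2 lies on chromosome 2 from 28392448 to 28417317.

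The make-up of the FOS family RNA differed between the groups. FOSB was 51.2%, 47.5% and 53.3% of the summed FPKM of the 4 genes in EV and 30.7%, 40.4% and 37.5% in TEFM. FOS was 44.7% ± 3.35 in EV and 53.3% ± 3.71 in TEFM. FOSL1 went from 2.93% ± 0.423 to 7.85% ± 1 (SD, n = 3). The sum was 144, 131 and 149 FPKM in EV and 96.7, 132 and 121 FPKM in TEFM, so the groups overlapped. The ratio of FOS to JUN was 0.745 ± 0.0171 in EV and 1.05 ± 0.0424 in TEFM, without overlap (exact permutation p = 0.1).

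**Figure D2:**
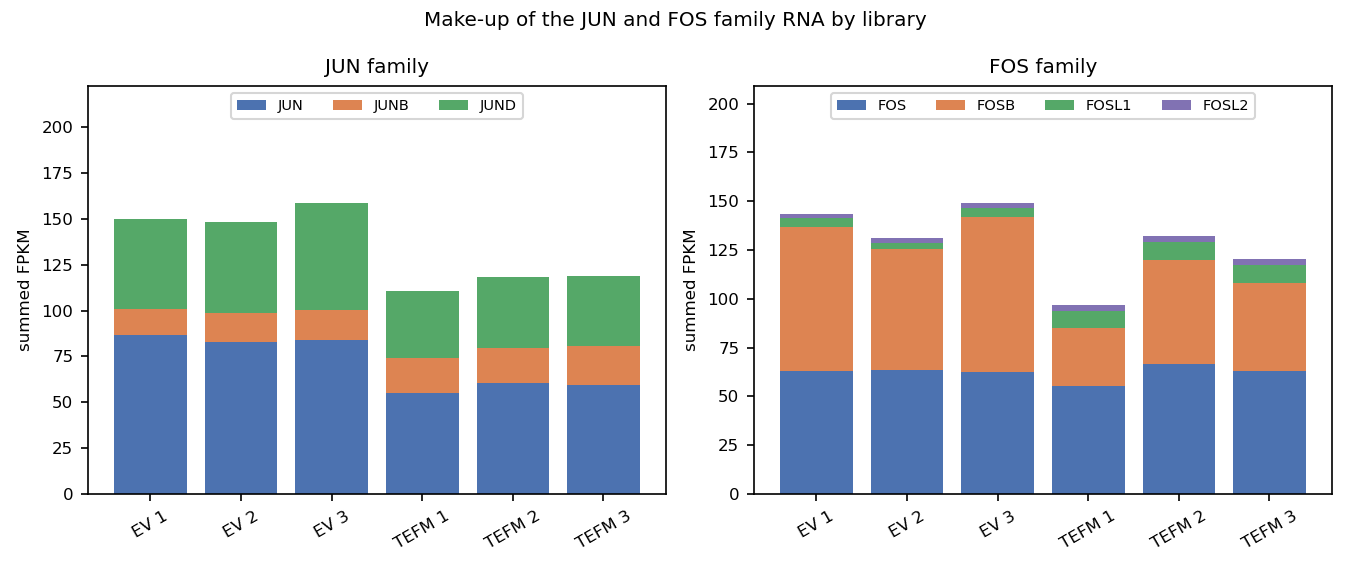
Summed FPKM of the JUN family (left) and the FOS family (right) in each library, stacked by gene from 0. The JUN family sum was 152 ± 5.65 FPKM in EV and 116 ± 4.63 FPKM in TEFM (SD, n = 3), and the FOSB part was smaller and the FOSL1 part larger in every TEFM library.

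Among the members outside AP-1, EGR1, a growth-factor-induced transcription factor, had 97.39, 95.62 and 86.06 FPKM in EV and 124.95, 143.52 and 141.85 FPKM in TEFM. It was the most abundant of the 10 per length in both groups, and the groups did not overlap. EGR1 rose by 0.6 on the log2 scale (SE 0.051, edgeR adjusted p = 1.02e-09). EGR1 lies on chromosome 5 from 138465479 to 138469303 on the plus strand.

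IER5 had 5.08, 5.13 and 5.44 FPKM in EV and 19.78, 18.65 and 18.57 FPKM in TEFM. Libraries of a group were close and the groups far apart. IER5 rose by 1.9 on the log2 scale (SE 0.0653, edgeR adjusted p = 4.4e-17), and 1.05% of tested genes had an absolute log2 fold change as large. IER5 (ENSG00000162783, chromosome 1, 181088700 to 181092900, plus strand) is a gene without introns in GENCODE 29. The 38 other tested genes within 5 Mb had a median log2 fold change of -0.07. IER2, a nuclear protein gene induced by growth factors, had 26.03, 25.97 and 26.69 FPKM in EV and 25.16, 27.09 and 26.3 FPKM in TEFM. The groups overlapped, and the log2 fold change of 0.04 had a 95% interval from -0.07 to 0.14 (edgeR adjusted p = 0.598). IER2 lies 0.36 Mb from JUNB on chromosome 19.

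**Figure D3:**
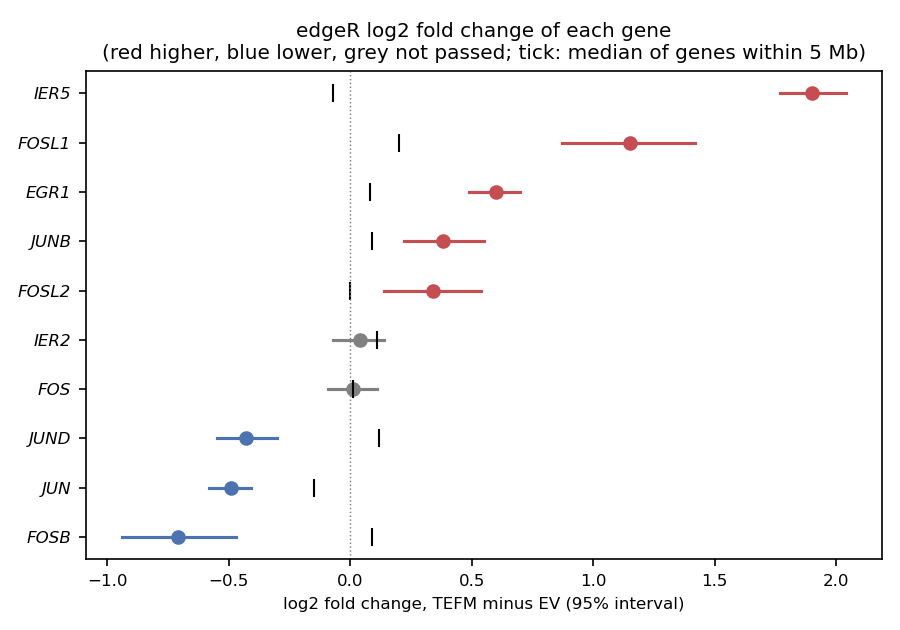
Log2 fold change of each gene, TEFM minus EV, with its 95% interval from edgeR, in red where higher, blue where lower and grey where the test was not passed. The black tick is the median of the other tested genes within 5 Mb, which lies between -0.15 (JUN) and 0.2 (FOSL1).

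Ordered by FPKM, the EV libraries ran EGR1, JUN, FOSB, FOS, JUND, IER2, JUNB, IER5, FOSL1 and FOSL2. Values overlapped between EGR1 and JUN and between FOSB and FOS, and no other neighbours overlapped. In TEFM the order was EGR1, FOS, JUN, FOSB, JUND, IER2, JUNB, IER5, FOSL1 and FOSL2. There FOS and JUN overlapped, as did FOSB and JUND, and JUNB and IER5. FOS stood above JUN and FOSB by mean in TEFM and below both in EV, with JUN and FOSB lower and its own values overlapping.

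Within the TEFM group, replicate 1 was the lowest of the 3 libraries for 8 of the 10 members, FOSB, FOS and EGR1 among them, and the highest for IER5. It was also the lowest for 18 of the 28 tested further immediate early genes listed below (64.3%), against 31.7% of all tested genes. Among EV libraries, replicate 3 was the highest for 7 of the 10 members, against 37.6% of all tested genes. For the further immediate early genes that share was 35.7%. Without TEFM replicate 1 the same numbers of members passed, 5 higher and 3 lower. The further immediate early genes then counted 12 higher and 10 lower, against 10 and 10 with all libraries.

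**Figure D4:**
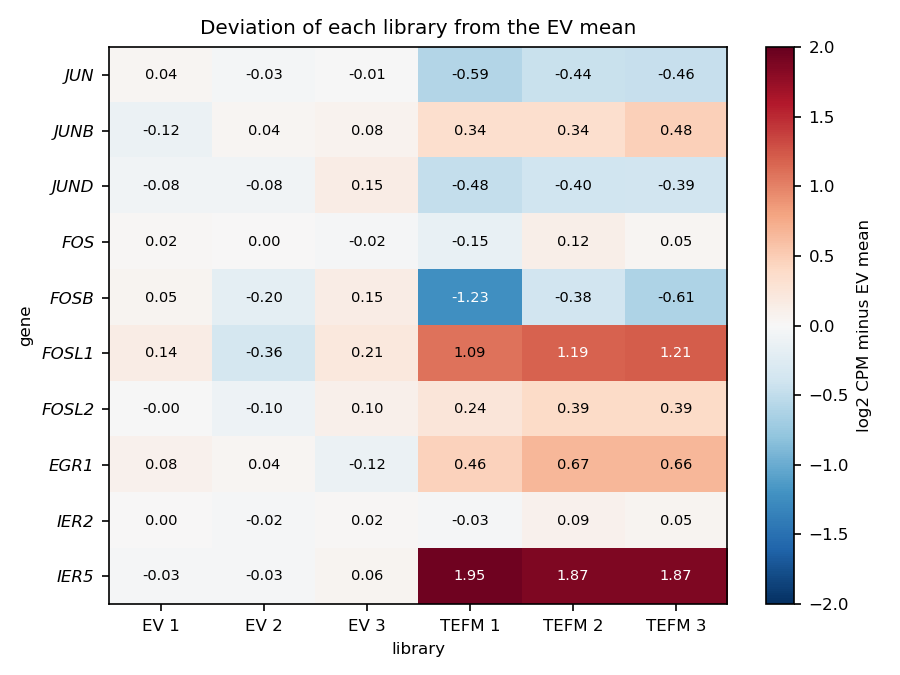
Log2 CPM (counts scaled by library total and composition) of each gene in each library minus the mean of the 3 EV libraries, with the value printed in each cell. FOSB in TEFM replicate 1 lay at -1.232, against -0.376 and -0.612 in the other TEFM libraries, whereas IER5 was close to 1.9 above it in all of them.

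Of 12 other bZIP genes whose products can pair with JUN or FOS proteins or compete for related sites, 8 were tested, 2 rose and 4 fell, with a median log2 fold change of -0.16. ATF3, a stress-induced partner of JUN, fell from 37.0 ± 0.602 to 19.2 ± 2.24 FPKM (SD, n = 3), or -0.91 on the log2 scale (SE 0.0599). ATF7 and ATF2, which pair with JUN, fell with log2 fold changes of -0.26 and -0.19. Without EV replicate 1 or TEFM replicate 2, and with limma, only 1 of these genes rose. BATF was listed at 0 in every library. The counts of this list and of those below stand beside 21.7% of all tested genes higher and 21.7% lower.

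Of 31 further immediate early genes, 28 were tested, 10 rose, 10 fell and 8 did not pass, with a median log2 fold change of 0.09 against -0.003 for all tested genes. SGK1, one of those that rose, had 0.97 ± 0.01 FPKM in EV and 1.64 ± 0.159 FPKM in TEFM (SD, n = 3), so it met the minimum of 1 FPKM only through the group where it was high. ZFP36L1, an RNA-destabilising protein gene, fell from 18.0 ± 0.387 to 10.9 ± 0.0961 FPKM, and the TGF-beta-inducible KLF10 from 45.0 ± 6.03 to 24.8 ± 2.25 FPKM (SD, n = 3). TRIB1, a pseudokinase gene, fell with a log2 fold change of -0.88. MYC, the proliferation regulator, rose from 41.3 ± 2.36 to 53.9 ± 2.05 FPKM, which is 0.42 on the log2 scale. As among the members, rises and falls stood side by side. Among those with a mean of at least 5 FPKM, 3 rose and 9 fell. At that minimum 2046 of all tested genes rose and 2103 fell.

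Upstream of these genes lie serum response factor, its ETS partners and the MAP kinases. Of 21 such genes 20 were tested, 3 rose, 6 fell and 11 did not pass, with a median log2 fold change of -0.02. Across all tested genes 43.4% passed. RPS6KA1, a kinase activated by ERK, rose from 12.0 ± 0.566 to 17.0 ± 0.411 FPKM, which is 0.54 on the log2 scale. SRF fell from 29.8 ± 1.4 to 23.1 ± 1.89 FPKM, which is -0.33 on the log2 scale. MAPK14, which encodes p38 alpha, fell by the same amount, and RPS6KA3 had a log2 fold change of -0.25. Without EV replicate 1 or TEFM replicate 2, with limma and with no composition scaling, 1 gene of this list rose. RNA levels do not measure the activity of these kinases.

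Of 25 textbook AP-1 target genes only 12 were tested, since the others, all 6 listed matrix metalloproteinases included, were below the minimum. Of these 12, 10 rose, 1 fell and 1 did not pass, with a median log2 fold change of 0.56. The 10 include LIF, a cytokine gene with an EV level of 0.78 ± 0.287 FPKM and a TEFM level of 1.23 ± 0.0874 FPKM (SD, n = 3), which likewise met the minimum only through TEFM. PHLDA1 rose from 9.45 ± 0.471 to 19.2 ± 0.17 FPKM, and the adhesion receptor gene CD44 from 6.33 ± 0.308 to 10.7 ± 0.274 FPKM, both ± SD with n = 3. The cyclin gene CCND1 rose from 146.15, 141.62 and 153.73 FPKM in EV to 214.54, 210.37 and 204.84 FPKM in TEFM. S100A2 rose with a log2 fold change of 0.96. ITGA2 (log2 fold change -0.14, edgeR adjusted p = 0.0487) was the gene that fell, and none fell without EV replicate 1, EV replicate 2, any 1 of the TEFM replicates, or with DESeq2. With limma on log2(FPKM + 1) 6 rose. These genes answer to other factors too.

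Among EGR1 feedback and target genes, 7 were tested, 3 rose and 3 fell, with a median of -0.1. NAB2, a corepressor of EGR1 that EGR1 induces, rose from 3.53 ± 0.333 to 4.58 ± 0.477 FPKM (SD, n = 3). NAB1, the related corepressor, fell from 17.7 ± 0.592 to 12.0 ± 0.363 FPKM. PDGFB, a growth factor gene, rose with a log2 fold change of 0.48. Without EV replicate 2 only 1 of these genes rose.

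Beside IER5, whose product acts on HSF1 and which HSF1 can itself induce, the heat shock list was mostly higher. Of 14 tested genes 11 rose, 1 fell and 2 did not pass, with a median log2 fold change of 0.61. HSPA8, the constitutive chaperone, and HSPA1B, an inducible one, had log2 fold changes of 2.07 and 2.37, the latter near-identical in sequence to HSPA1A (0.87), so the split of their reads is uncertain. DNAJB1 and DNAJA1, co-chaperones, had log2 fold changes of 1.1 and 1.06. HSF1 had 12.5 ± 0.335 FPKM in EV and 11.4 ± 0.686 in TEFM (SD, n = 3, edgeR adjusted p = 0.202). HSF2 was the gene that fell, and none fell once EV replicate 1, EV replicate 2 or TEFM replicate 2 was left out. Earlier results of these data had shown this rise, so it is no independent support for that of IER5.

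**Figure D5:**
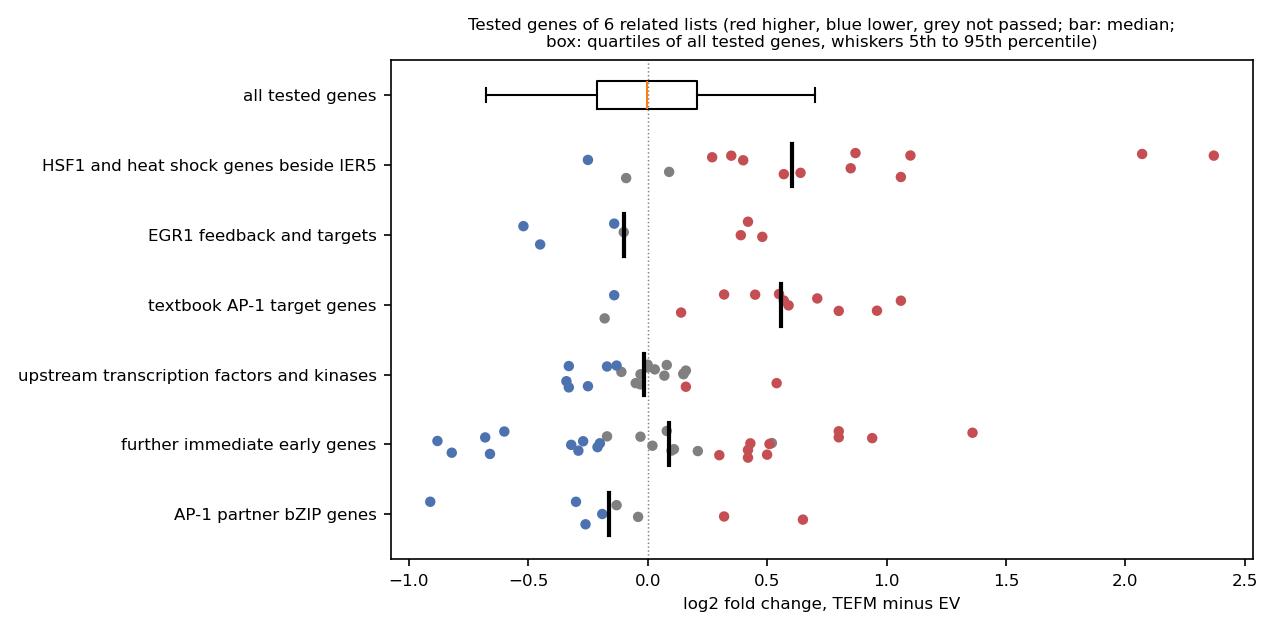
Log2 fold change, TEFM minus EV, of the tested genes of 6 related lists, each point a gene (red higher, blue lower, grey not passed) and each bar the list's median, with all 14254 tested genes as a box. The medians of AP-1 targets (0.56) and heat shock genes (0.61) lie to the right of 0, and those of the other 4 lists between -0.16 and 0.09.

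The genes whose profiles over the 6 libraries lay nearest to the member with the largest rise and the one with the largest fall were taken from 7562 other genes with a symbol and a mean of at least 5 FPKM. The measure was the root mean square difference of log2 CPM centred on the EV mean. Among the nearest to IER5 were SYT13 (0.091) and CLDN1 (0.105). SYT13 went from 2.51 ± 0.186 to 9.92 ± 0.588 FPKM (SD, n = 3), so it met the minimum of 5 FPKM only through TEFM. Nearest to FOSB, and less close, were PAXIP1-DT (0.172), LRATD2 (0.177) and SMIM19 (0.18). PAXIP1-DT and SMIM19, with TEFM means of 4.27 and 4.68 FPKM, met that minimum only through EV, where they were higher. LRATD2 went from 18.3 ± 0.749 to 9.43 ± 1.83 FPKM.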

How the data were processed

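RNA-seq of poly(A)-selected RNA was deposited for 6 libraries as 1 table. Per the file headers it holds raw counts and FPKM per gene and library. The deposited FPKM equal counts divided by exonic length and column total; 100% of values lay within 0.0051 of that. Per the submitters' processing notes, cutadapt 1.9.1 was used and the build was hg19, but of 58254 IDs shared with GENCODE 29 on GRCh38, 99.9% overlapped in place, so coordinates are printed as in the table and read as GRCh38. No source used here names the aligner or the counting tool.

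Genes with a mean of at least 1 FPKM were tested with edgeR 4.0.16 (R 4.3.3), TMM scaling (factors 0.982 to 1.02), on the deposited counts. Standard errors and 95% intervals come from the F statistic. The fit code was run on simulated data. There every gene had the same spread and few genes were changed, unlike here, so this checked the code only. Ratios were tested with scipy 1.17.1. No pair of libraries agreed within counting error (chi-square per degree of freedom 2.18 to 4.86 within groups; between groups 26.8 to 35.1).

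The members and all lists were chosen with earlier results of these data known. Named are all members, up to 4 tested genes per list with the smallest p, TEFM, overlapping genes and the 3 nearest profiles; some genes under this rule are not reported here. Other genes named, such as ITGA2, LIF, SGK1, BATF, HSF1, HSF2, HSPA1A, DCN and the other markers, were chosen after their values were seen. Alternatives were other scalings and filters, DESeq2 1.42.0, limma 3.58.1 on log2(FPKM + 1) and log2(FPKM + 0.1), robust dispersions, leaving out each library, and a replicate block. Promoters are from RefSeq on GRCh38.p14, found for 9 members.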

Additional observations from a re-analysis of the deposited data

How the results depend on the processing

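Of 159 values of member log2 fold changes over 16 alternative settings, 158 kept their side of the threshold, and no called value changed sign. The exception was FOSB with robust dispersions (edgeR adjusted p = 0.0978), and the cause was not tested. FOSL2 was not tested at a mean of at least 5 FPKM. FOSL1, with means of 4.16 FPKM in EV and 9.02 FPKM in TEFM, met that minimum only through TEFM. Its kept call there is therefore no independent support. At that minimum 2046 of all genes were higher and 2103 lower, against 3092 and 3092, with fewer genes tested (the cause follows from the filter). The shares of 21.7% higher and 21.7% lower hold for the minimum of 1 FPKM only. At 5 FPKM, 3 further immediate early genes were higher and 9 lower, and 5 AP-1 targets were higher and 1 lower. Of the partner bZIP and EGR1 lists 0 genes were higher, while 4 and 2 were lower. ITGA2 also lost its call with RLE or upper-quartile scaling, no filter, robust dispersions and the replicate block. The log2 fold changes of FOS (-0.05 to 0.08) and IER2 (-0.003 to 0.07), never called, changed sign. Those of IER5 ran from 1.69 to 1.93 and those of JUN from -0.53 to -0.45. The log2 difference of the JUN to JUNB ratio ran from -0.93 to -0.80 on raw counts and with each library left out, that of FOS to JUN from 0.47 to 0.53, and that of JUN to JUND from -0.16 to -0.01. EV and TEFM libraries of the same number did not deviate together over all tested genes (correlations -0.034, 0.028 and -0.023). This cannot exclude that libraries of the same number were handled together. With the replicate block 5 members were higher and 3 lower, as without it, and FOSB stood at -0.73. The 95% intervals of FOS (-0.09 to 0.11) and IER2 (-0.07 to 0.14) give the size of change that these libraries leave possible.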
